A study of Mus musculus with 14 samples.

Results

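Glypicans are a small family of cell-surface proteins that carry heparan sulfate chains and are anchored to the outer face of the cell membrane by a glycolipid. The 6 mouse genes Gpc1 to Gpc6 were taken by symbol from a table of 55401 genes measured in the suprachiasmatic nucleus (SCN), the hypothalamic pacemaker of daily rhythms, and all 6 were among the 18175 genes with enough signal to test. The family was chosen by the normalized counts of Gpc3, which stood higher in Vipr2-/- than in wild-type SCN. The genotype difference of Gpc3 is therefore given as a description with no test, whereas the other 5 genes were included by name alone and were tested.

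Through their sulfated chains and their protein cores, glypicans bind secreted signals such as Hedgehog, Wnt, FGF and BMP proteins and alter how these reach their receptors. Glypican 3 binds Hedgehog and Wnt proteins, and loss of the human gene causes the overgrowth disorder Simpson-Golabi-Behmel syndrome. In brain, glypican 1 is a common neuronal glypican, glypican 2 is known from developing axons, and glypicans 4 and 6 are released by astrocytes and promote the formation of excitatory synapses. Gpc3 and Gpc5 form one branch of the family, and Gpc1, Gpc2, Gpc4 and Gpc6 the other.

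Total RNA of SCN cut out by laser from cresyl violet-stained brain sections was sequenced in 14 libraries. Mice were on a C57BL/6 background, adults over 8 weeks old and, per the labels' protocols, mostly males, and after 14 days of light-dark cycles they lived in constant darkness. Vipr2-/- mice lack VPAC2, the receptor for the peptide VIP that keeps SCN neurons in step. They gave 3 libraries under SVE, scheduled voluntary exercise in a wheel tied to a 6 h window in every 24 h after 14 days of free run, and 3 under nSVE, free run without that schedule. Wild type, Vipr2+/+, gave 4 SVE and 4 nSVE libraries. SVE mice were killed once entrained, 2 h after the wheel became available (time 14), and nSVE mice at circadian time 14. Entrainment took 6 to 9 days in Vipr2-/- mice and 35 to 40 days in wild type, and the series text also gives circadian time 24 for the wild-type SVE group, so exercise, its length and that time cannot be told apart in wild type. The SVE groups of the genotypes thus also differ in length of exercise and in the time given. In the comparisons of genotype under SVE, averaged over conditions and by interaction, these cannot be told apart from genotype. Mice that did not entrain to SVE and arrhythmic Vipr2-/- nSVE mice had been excluded by the authors. The labels do not say whether each library is a separate animal, so p-values measure the spread between libraries.

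Vipr2 itself, as a check of the labels, stood at 90.9 to 244 normalized counts in Vipr2-/- SVE and 144 to 218 in Vipr2-/- nSVE libraries, against 6792 to 10031 in wild-type SVE and 6247 to 7042 in wild-type nSVE libraries. Read totals lay between 17709080 and 48794679 per library, and 15442 to 21906 genes were detected. Of the tested genes, the share at 0 was 10.3% ± 6.17 in Vipr2-/- SVE and 14.5% ± 5.32 in Vipr2-/- nSVE (SD, n = 3 each), and 3.21% ± 1.54 in wild-type SVE and 6.94% ± 1.66 in wild-type nSVE (SD, n = 4 each). The most abundant rRNA-related gene took 3.22% ± 0.518 and 11.5% ± 7.75 of reads in Vipr2-/- SVE and nSVE, against 5.18% ± 5.21 and 15.03% ± 8.11 in wild-type SVE and nSVE. Of 9 SCN neuron markers, each was detected in every group, with summed levels of 46706 to 49630 in Vipr2-/- SVE, 44022 to 49514 in Vipr2-/- nSVE, 61124 to 73285 in wild-type SVE and 52111 to 56411 in wild-type nSVE. By genotype, 6 of the 9 had a log2 difference above 0 and 3 below under nSVE, and 2 above and 7 below under SVE. Under nSVE the largest gaps were in the peptide genes Avp, at a mean of 6525 in Vipr2-/- and 13553 in wild type, and Vip, at 4464 and 8487. The lower Vipr2-/- sum under nSVE thus does not describe most of the list. Of 7 markers of neighbouring hypothalamus, Pmch was at 0 in every group, whereas the paraventricular and supraoptic peptide gene Oxt averaged between 3890 and 6294 in the 4 groups.

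The bases just before the start of Gpc3 are shown because this gene carries the main contrast of the family. They lie at chrX:52613975-52614224 on the minus strand (RefSeq, GRCm38.p6), and capitals mark matches to the GC box GGGCGG on either strand, the letters that Sp factors bind.

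Gpc3 upstream region: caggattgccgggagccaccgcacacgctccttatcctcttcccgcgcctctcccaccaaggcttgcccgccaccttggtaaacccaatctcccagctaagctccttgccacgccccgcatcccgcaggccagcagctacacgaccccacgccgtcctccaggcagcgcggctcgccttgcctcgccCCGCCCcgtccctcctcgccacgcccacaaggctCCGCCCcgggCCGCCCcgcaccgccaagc

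These 250 bases are 71.6% G or C, against a mean of 53.2% over the same stretch of all 32851 RefSeq promoter windows of the mouse table. Motifs were searched in this stretch of each window only, and the 50 bases after the start that the windows add were not searched. The Gpc3 stretch holds 3 GC boxes, and 32.7% of all windows hold at least 1 there. No match was found in it to the cyclic AMP response element TGACGTCA, which 1.55% of all windows hold, or to its half-site TGACG, held by 17.8%. Neither was there one to the E-box CACGTG, held by 6.02%, the D-box TTATGTAA, held by 0.819%, the REV-ERB and ROR half-site AGGTCA, held by 14.0%, or the TATA box TATAAA, held by 12.4%. Each motif was searched on both strands. TGACG lies within TGACGTCA, and no other motif searched lies within another. The table holds windows for 4 of the 6 glypicans: Gpc2, like Gpc3, holds 3 GC boxes and no other motif searched. Gpc4 holds 1 GC box and 1 AGGTCA, and Gpc5 1 GC box and 1 TATAAA.

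On GRCm38, Gpc3 (ENSMUSG00000055653.13) lies at chrX:52272426-52613950 and Gpc4 (ENSMUSG00000031119.4) at chrX:52053021-52165252, both on the minus strand and 107 kb apart. Gpc5 (ENSMUSG00000022112.14, chr14:115092215-116525179) and Gpc6 (ENSMUSG00000058571.11, chr14:116925315-117976544) form a second neighbouring pair, both on the plus strand, with 400.1 kb between them. Gpc1 (ENSMUSG00000034220.7, chr1:92831645-92860779, plus strand) and Gpc2 (ENSMUSG00000029510.15, chr5:138273655-138280005, minus strand) stand alone. Of Gpc2's exonic bases, 2376 are shared with the same-strand gene Gm43720, which averaged 44.8 normalized counts, so reads of that stretch could have been counted for either gene and Gpc2 values are uncertain. Gpc1 shares 977 exonic bases with Ankmy1 on the opposite strand, which averaged 27.8, and the strand setting of the counting is not given in the sources used here.

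Gpc3 and Gpc1 made up most of the glypican RNA of the SCN in each of the 4 groups. Over the 14 libraries and per kb of exon, Gpc3 averaged 841.6 normalized counts and Gpc1 659.5, followed by Gpc5 at 151.3, Gpc4 at 67.7, Gpc6 at 40.7 and Gpc2 at 1.59. The order at the top differed between the groups. Per kb, Gpc3 averaged 1013 and Gpc1 580 in Vipr2-/- SVE, and Gpc3 1168 and Gpc1 655 in Vipr2-/- nSVE, with no overlap between the genes in either group. In wild-type SVE the pair could not be ordered, with Gpc3 at 836.2 ± 171 and Gpc1 at 791.9 ± 52.1 per kb (SD, n = 4). In wild-type nSVE Gpc1 averaged 590.0 ± 48.1 and Gpc3 473.6 ± 41.6 per kb (SD, n = 4), and their ranges overlapped slightly. Gpc5 came next in every group. Gpc4 and Gpc6 overlapped per kb in both Vipr2-/- groups, where Gpc4 spanned 20.0 to 115.1 and Gpc6 25.6 to 45.04 under SVE, and Gpc4 24.1 to 81.9 and Gpc6 46.8 to 96.7 under nSVE. In wild type Gpc4 lay above Gpc6, at 68.4 to 79.8 against 25.2 to 37.9 per kb under SVE and at 66.6 to 96.7 against 20.8 to 40.8 per kb under nSVE. Gpc2, the glypican of growing axons, was at 0 in 7 of 14 libraries.

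**Figure D1:**
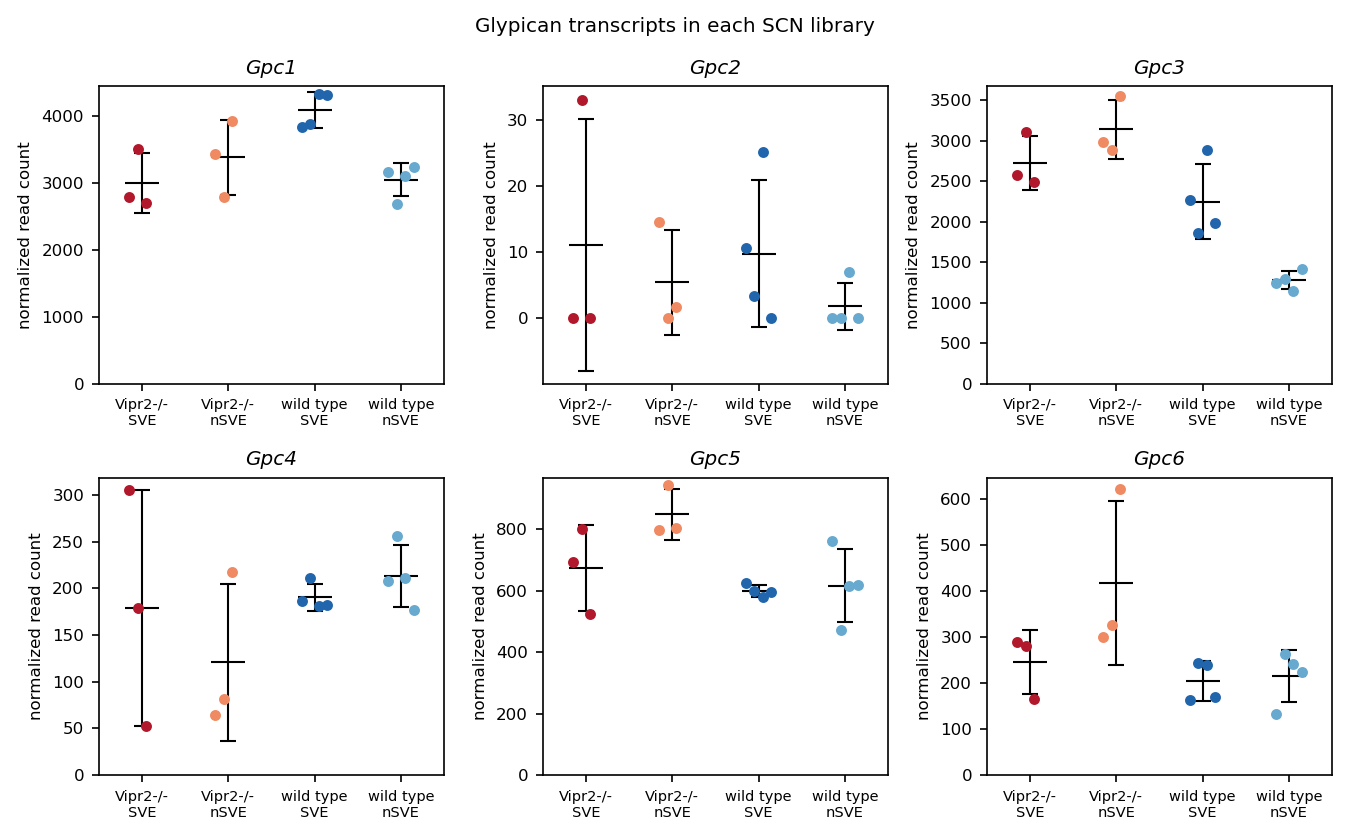
Normalized read count (vertical axis, linear, a separate scale per panel) of each glypican in every library, by genotype and exercise group; horizontal lines are group means and bars 1 SD, which for the near-absent Gpc2 reach below 0. The 4 wild-type nSVE libraries of Gpc3 lie between 1147 and 1416, below each of the 10 other libraries, and Gpc1 is highest in the 4 wild-type SVE libraries except for 1 Vipr2-/- nSVE library within their range.

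Gpc3 stood higher in Vipr2-/- than in wild-type SCN mainly where neither genotype had the exercise schedule. The Vipr2-/- nSVE libraries held 2981, 2890 and 3556 normalized counts, against 1240, 1292, 1147 and 1416 in wild-type nSVE. Each Vipr2-/- library lay above each wild-type library, as for 4.91% of all genes tested, and the log2 difference on the log2(value + 1) scale was 1.30. Under SVE, Vipr2-/- libraries held 2572, 3110 and 2492 and wild-type libraries 2270, 1854, 2889 and 1985. Here the groups overlapped and the log2 difference was 0.29, so the description of Gpc3 as higher in the knockout holds far more plainly for nSVE than for SVE mice. Averaged over both conditions the log2 difference was 0.80. Leaving out any 1 library kept the nSVE difference between 1.21 and 1.36 and the SVE difference between 0.19 and 0.42. These ranges come from the values that chose the gene, so they too are a description and lend it no support. The Gpc3 values rested on 977 to 4224 reads per library.

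In wild-type SCN, Gpc3 was higher with SVE. Its level averaged 2249 ± 460 under SVE and 1274 ± 112 under nSVE (SD, n = 4 each), and all 4 SVE libraries exceeded all 4 nSVE libraries, as for 8.61% of all genes tested. The log2 difference was 0.80 ± 0.14 (SE; 95% interval 0.51 to 1.10), a 1.74-fold rise (limma, Benjamini-Hochberg adjusted p = 0.0156). This comparison contains the wild-type nSVE libraries whose low Gpc3 helped to choose the gene, so it is not independent of that choice. The call was lost without wild-type SVE library 1 (adjusted p = 0.0582) or wild-type nSVE library 1 (adjusted p = 0.0635), and with the rRNA share of each library as covariate (log2 difference 0.69, adjusted p = 0.240, all by limma). In the same comparison the summed SCN neuron markers were also higher under SVE, and most of that rise lay in Rgs16, a regulator of G protein signalling, which averaged 15097 under SVE and 4481 under nSVE. Without Rgs16, a sum computed after its values were seen, the other 8 markers summed to 51154 to 53793 under SVE and 48051 to 51952 under nSVE, which overlapped. The peptide genes Vip, at a mean of 5692 under SVE and 8487 under nSVE, and Avp, at 13347 under SVE and 13553 under nSVE, were not higher, and neither passed the test. The summed oligodendrocyte markers were 44136 to 66759 under SVE and 69165 to 94897 under nSVE. Of the 9 neuron markers, 7 had a log2 difference above 0 and 2 below. Rgs16 and Nms, the peptide neuromedin S, passed the test, both higher, beside 1.28% of all genes called in this comparison. Of the 6 oligodendrocyte markers, all were below 0 and Mobp, a myelin protein gene, passed, at a mean of 6471 under SVE and 10380 under nSVE (log2 difference -0.68, limma adjusted p = 0.0194). Mobp averaged 3516 in Vipr2-/- SVE and 3215 in Vipr2-/- nSVE, so its means also differed by genotype. Of the 6 markers, 3 had a genotype log2 difference above 0 and 3 below in each condition. In wild type the summed astrocyte markers were 47810 to 51213 under SVE and 54381 to 65440 under nSVE. Of these 7 markers, 1 had a log2 difference above 0 and 6 below, and 0 passed. The part of these shifts in the Gpc3 difference was not tested, and in bulk tissue fewer cells of a type and less RNA per cell cannot be told apart.

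In Vipr2-/- SCN, Gpc3 averaged 2725 ± 336 under SVE and 3142 ± 362 under nSVE (SD, n = 3 each), and the groups overlapped. The log2 difference was -0.21 (95% interval -0.55 to 0.14; limma adjusted p = 0.579). This comparison too contains libraries whose Gpc3 values helped to choose the gene. The SVE effect in Vipr2-/- minus that in wild type was -1.01 on the log2 scale. This value is also the difference of the pair of genotype contrasts that the choice of Gpc3 used, so it is a description with no test. Among the 5 glypicans other than Gpc3, 0 passed for SVE in wild type by limma and by edgeR and 1, Gpc1, by DESeq2, beside 1.28% of all genes called by limma. Gpc1 was also the 1 of 5 with an unadjusted limma p under 0.05, beside 12.5% of all genes. In Vipr2-/- mice 0 of 6 passed for SVE by limma, edgeR or DESeq2, and 0 had an unadjusted limma p under 0.05, beside 0.116% of all genes called by limma and 13.8% with such an unadjusted p. For the interaction 0 of the 5 other than Gpc3 passed by limma, edgeR or DESeq2, and 1, Gpc1, had an unadjusted limma p under 0.05, beside 0.022% of all genes called by limma and 10.3% with such an unadjusted p.

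Gpc1, the neuronal glypican, had its highest levels in exercised wild-type SCN. Wild-type SVE libraries held 3836, 3870, 4321 and 4316 normalized counts, against 3158, 2680, 3103 and 3233 in wild-type nSVE. Here too all SVE libraries lay above all nSVE libraries, as for 8.61% of all genes tested. The log2 difference was 0.43 (95% interval 0.17 to 0.68) and did not pass over all genes (limma adjusted p = 0.103). DESeq2 called it (adjusted p = 0.0206), as did limma fitted to these 8 libraries alone (adjusted p = 0.0155) and limma with library weights (adjusted p = 0.00601). It did not pass by edgeR, and with the rRNA share as covariate the log2 difference was 0.29 (limma adjusted p = 0.700). In Vipr2-/- mice Gpc1 stood at 2784, 3509 and 2690 under SVE and at 3425, 2793 and 3917 under nSVE, which overlapped. Under SVE all 3 Vipr2-/- libraries lay below all 4 wild-type libraries, as for 8.18% of all genes tested, with a log2 difference of -0.46 (95% interval -0.73 to -0.18; limma adjusted p = 0.155). That difference passed by DESeq2 (adjusted p = 0.0352) and without Vipr2-/- SVE library 2 (limma adjusted p = 0.0230). Under nSVE the genotypes overlapped, at a log2 difference of 0.14 (95% interval -0.13 to 0.42). The difference between the SVE effects was -0.60 (95% interval -0.99 to -0.21; limma adjusted p = 0.381).

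Among the 5 glypicans other than Gpc3, 0 passed for genotype under nSVE by limma, edgeR or DESeq2, beside 0.611% of all genes called by limma. The 2 with an unadjusted p under 0.05, beside 14.3% of all genes, were the chromosome 14 neighbours Gpc5 and Gpc6. Gpc5, the closest relative of Gpc3, held 798, 945 and 805 normalized counts in Vipr2-/- nSVE, against 763, 472, 614 and 620 in wild-type nSVE. Each Vipr2-/- library lay above each wild-type library, as for 4.91% of all genes tested, though the nearest ones were close. The log2 difference was 0.48 (95% interval 0.06 to 0.89; limma adjusted p = 0.294). Under SVE, Gpc5 stood at 693, 801 and 523 in Vipr2-/- and at 624, 599, 579 and 596 in wild type. These groups overlapped, with a log2 difference of 0.14 (95% interval -0.27 to 0.56; limma adjusted p = 0.773).

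Gpc6, one of the astrocyte-released synapse-promoting glypicans, held 300.4, 326 and 621 normalized counts in Vipr2-/- nSVE, against 133, 262, 242 and 224 in wild-type nSVE. Each Vipr2-/- library lay above each wild-type library, as for 4.91% of all genes tested, and Vipr2-/- nSVE library 3 stood well above the others. The log2 difference was 0.91 (95% interval 0.12 to 1.70; limma adjusted p = 0.292), and it was 0.58 without that library. That library also had the highest share of tested genes at 0 of all 14, 20.7%, and its part in the Gpc6 level was not tested. Under SVE, Gpc6 stood at 289, 280 and 164 in Vipr2-/- and at 162, 244, 238 and 170 in wild type, which overlapped. Within Vipr2-/- mice the 3 SVE libraries lay below the 3 nSVE libraries, as for 4.7% of all genes tested, with a log2 difference of -0.73 (95% interval -1.58 to 0.12; limma adjusted p = 0.415).

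Gpc4, the other synapse-promoting glypican, was uneven among Vipr2-/- libraries. It held 305, 178 and 52.9 normalized counts in Vipr2-/- SVE and 63.9, 81.2 and 217 in Vipr2-/- nSVE, against 181 to 212 in wild-type SVE and 176 to 256 in wild-type nSVE. The coefficient of variation was 70.5% in Vipr2-/- SVE and 69.6% in Vipr2-/- nSVE, against 7.53% in wild-type SVE and 15.4% in wild-type nSVE. The 3 lowest values rested on 37, 44 and 53 reads, in Vipr2-/- SVE library 3 and Vipr2-/- nSVE libraries 1 and 2, which held between 17709080 and 20436462 reads. Wild-type nSVE library 4, with 20833250 reads in all, held 140 reads of Gpc4. The part of read depth in the low values was not tested. Both Vipr2-/- minus wild-type log2 differences were below 0, at -0.41 under SVE (95% interval -1.58 to 0.76; limma adjusted p = 0.768) and -1.01 under nSVE (95% interval -2.18 to 0.16; limma adjusted p = 0.417). The estimate for Gpc4, the X-linked neighbour of Gpc3, thus lay on the other side of 0 from that of Gpc3 in each condition, without passing, but under SVE it was 0.30 when Vipr2-/- SVE library 3 was left out. Gpc2 held 0, 33.1 and 0 in Vipr2-/- SVE and 14.5, 0 and 1.68 in Vipr2-/- nSVE, against 10.6, 3.29, 25.2 and 0 in wild-type SVE and 0, 0, 7.05 and 0 in wild-type nSVE. At 0 to 39 reads per library its groups overlapped throughout, and a difference was not detectable at this depth.

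For genotype under SVE, 0 of the 5 glypicans other than Gpc3 passed by limma and by edgeR, 1 (Gpc1) by DESeq2, and 1 had an unadjusted limma p under 0.05, beside 0.176% of all genes called by limma and 15% with such an unadjusted p. Averaged over conditions, 0 of 5 passed by limma, edgeR or DESeq2 and 2, Gpc5 and Gpc6, had an unadjusted limma p under 0.05, beside 1.18% and 17.8% of all genes. Their averaged log2 differences were 0.31 for Gpc5 (limma adjusted p = 0.255) and 0.58 for Gpc6 (limma adjusted p = 0.266). Over all 6 glypicans the median log2 difference was -0.13 under SVE and 0.69 under nSVE for genotype, beside -0.10 and -0.10 over all genes tested. For SVE it was -0.19 in Vipr2-/- and 0.20 in wild type, beside 0.04 and 0.03 over all genes tested. These medians include Gpc3, whose values chose the family.

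**Figure D2:**
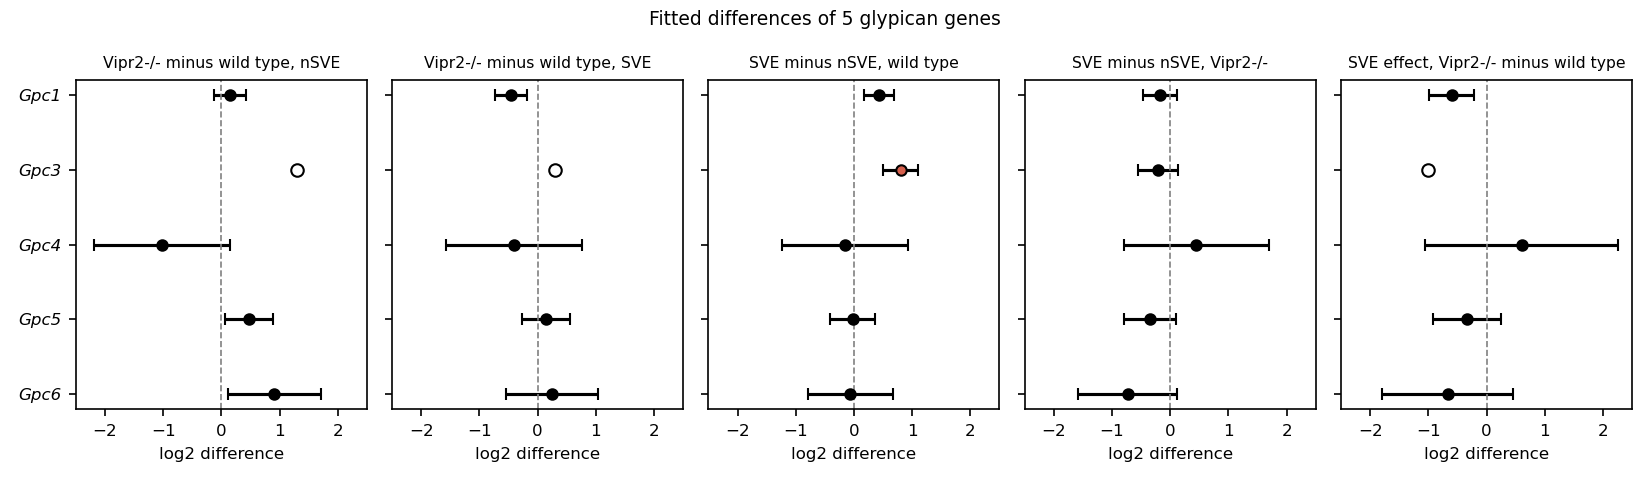
Fitted log2 differences (horizontal axis) of 5 glypicans in 5 comparisons, with points for the estimate and bars for its 95% interval; open circles are the genotype differences of Gpc3 and the value built from them (the right panel), drawn without an interval because they chose the gene, and the red point passed the limma test. Gpc2 is left out for its low reads, and the red point, Gpc3 for SVE in wild type, stands at 0.80. Both SVE comparisons of Gpc3 contain nSVE libraries that helped to choose the gene, so they are not independent of that choice.

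Gpc3 took a larger share of the family signal in Vipr2-/- SCN, which its choice for that genotype difference favoured in advance. Gpc3 took 54.8% ± 2.44 of the summed glypican signal per kb in Vipr2-/- SVE and 55.0% ± 1.09 in Vipr2-/- nSVE (SD, n = 3 each), against 44.4% ± 4.43 in wild-type SVE and 36.0% ± 2.63 in wild-type nSVE (SD, n = 4 each). Each Vipr2-/- library, at 52.8% or more, lay above each wild-type library, at 49.9% or less. Under SVE the Gpc3 counts themselves overlapped. Gpc1, part of the same sum, averaged 580 per kb in Vipr2-/- SVE and 792 in wild-type SVE. This share contains Gpc3, whose values chose the family, and is a description. Gpc1 took 31.3% ± 1.37 in Vipr2-/- SVE and 30.7% ± 2.23 in Vipr2-/- nSVE, against 42.6% ± 3.39 in wild-type SVE and 44.8% ± 2.14 in wild-type nSVE. Since the shares sum to 100%, those of Gpc1 and Gpc3 are not free of each other. The summed family signal per kb was 1853 ± 264 in Vipr2-/- SVE, 2125 ± 280 in Vipr2-/- nSVE, 1869 ± 198 in wild-type SVE and 1316 ± 66.0 in wild-type nSVE. Wild-type nSVE libraries, at 1243 to 1394, lay below those of the other groups, whose lowest library was at 1611.

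**Figure D3:**
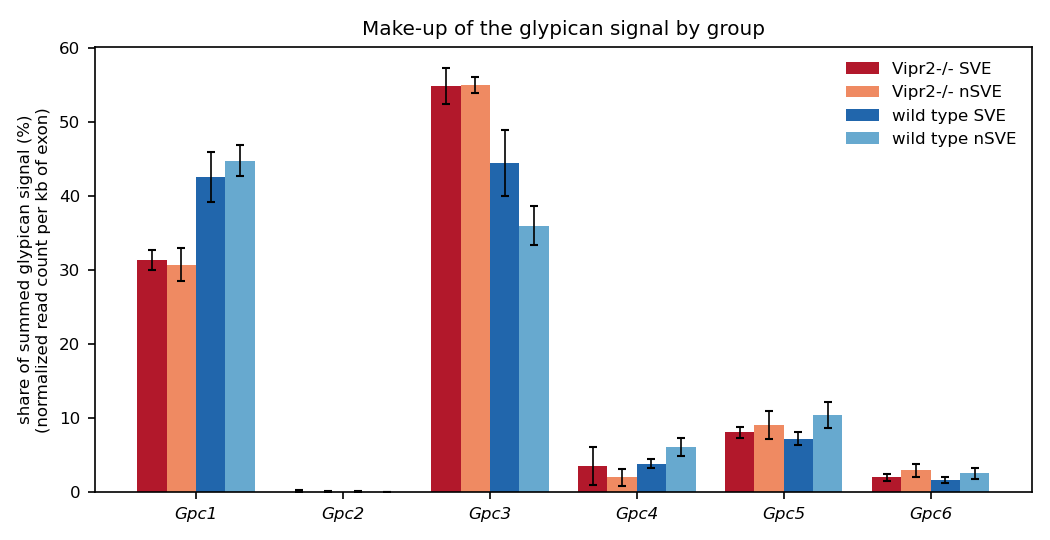
Share of the summed glypican signal per kb of exon (vertical axis, percent) that each gene took in the 4 groups; bars are means over 3 Vipr2-/- or 4 wild-type libraries and error bars 1 SD, cut at 0. Gpc3 takes 54.8% and 55.0% in the Vipr2-/- groups, against 44.4% and 36.0% in wild type, and Gpc1 the larger share only in wild-type nSVE.

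Among other heparan sulfate proteoglycans, agrin rose and syndecan 4 fell with SVE in wild type. They were 2 of 8 tested, beside 1.28% of all genes called in that comparison, with a median log2 difference of 0.10 beside 0.03 over all genes, and 0 passed in the 5 other comparisons. Agrn, agrin, a matrix proteoglycan that clusters receptors at synapses, averaged 7393 ± 1250 under SVE and 4683 ± 206 under nSVE in wild type (SD, n = 4 each). Its log2 difference was 0.64 (limma adjusted p = 0.0211). In Vipr2-/- it averaged 6309 ± 913 under SVE and 4307 ± 490 under nSVE (SD, n = 3 each), a log2 difference of 0.55 that did not pass (limma adjusted p = 0.164), and the difference between the SVE effects was -0.10 (limma adjusted p = 0.867). The wild-type call was lost without wild-type SVE library 1 or 4 or wild-type nSVE library 1, 2 or 4 (limma adjusted p up to 0.0940) and with either covariate. Sdc4, syndecan 4, a transmembrane proteoglycan of cell adhesion sites, averaged 4623 ± 436 under SVE and 6404 ± 671 under nSVE in wild type, a log2 difference of -0.47 (limma adjusted p = 0.0358). Its call was lost when any 1 of the 8 wild-type libraries was left out (limma adjusted p 0.0502 to 0.128), with no filter on low values and with either covariate.

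The enzymes that build and sulfate the chains, and those that release glypicans, are set against 0.022% to 1.28% of all genes called in the 6 comparisons, a background at which a list of this size is not set apart by having no call. Of 12 tested genes of linker and chain synthesis, 0 passed in any of the 6 comparisons, and their median averaged genotype difference was -0.01, beside -0.12 over all genes. B3gat3, which adds the last sugar of the linker, had the smallest p there, at -0.35 (limma adjusted p = 0.170), followed by Extl2 at 0.24 (limma adjusted p = 0.327). Of 21 tested genes of sulfation and trimming, 0 passed in any comparison, with a median averaged genotype difference of -0.04. Sulf2, which removes 6-O-sulfates outside the cell, stood at -0.34 (limma adjusted p = 0.0986) and Ndst1, which starts sulfation of the chain, at -0.18 (limma adjusted p = 0.195). Of 9 genes of glypican cleavage and release, 0 passed in any comparison, with a median of -0.17. Adam10, a sheddase, stood at -0.33 (limma adjusted p = 0.304) and Furin, the convertase that cuts glypican 3, at -0.17 (limma adjusted p = 0.338).

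Of 13 synaptic and surface partners of glypicans, 0 passed in any comparison, beside 0.022% to 1.28% of all genes called. Having no call does not set a list of this size apart. Their median averaged genotype difference was -0.13, beside -0.12 over all genes. Lrrtm3, a postsynaptic adhesion protein of the LRRTM family whose members bind glypicans, came nearest, with an averaged genotype difference of 0.54 (limma adjusted p = 0.0504). Ptprd, a receptor tyrosine phosphatase of the family that binds heparan sulfate proteoglycans, stood at 0.33 (limma adjusted p = 0.115). Of 5 tested genes around insulin-like growth factor 2, 0 passed in any comparison, beside the same shares of all genes, with a median of -0.16. Insr, the insulin receptor, stood at 0.36 (limma adjusted p = 0.172). The RNA-binding protein gene Igf2bp3 was at 0 in all 6 Vipr2-/- libraries and at 0 to 18.7 in wild-type SVE and 0 to 30.5 in wild-type nSVE, so it was tested only through its wild-type values and no fold is given (limma adjusted p = 0.212).

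Of the signals that glypicans bind, the Hedgehog ligand Shh was higher in Vipr2-/- SCN. Shh averaged 704 ± 258 in Vipr2-/- SVE and 443 ± 81.9 in wild-type SVE, and 674 ± 96.3 in Vipr2-/- nSVE and 316 ± 61.6 in wild-type nSVE (SD). Each Vipr2-/- library lay above each wild-type library in either condition, as for 5.96% of all genes tested under SVE and 4.91% under nSVE, and the averaged log2 difference was 0.86 (limma adjusted p = 0.0366). The call remained when Vipr2-/- SVE library 2 or 3 or Vipr2-/- nSVE library 3 was left out and was lost without any 1 of the 11 others (limma adjusted p up to 0.0946). It was also lost when each library's share of genes at 0 (adjusted p = 0.445) or of rRNA (adjusted p = 0.0502) was a covariate, and with no filter on low values (adjusted p = 0.0504). Shh was 1 of 13 tested Hedgehog genes to pass, beside 1.18% of all genes called, and the list's median averaged genotype difference was -0.01. None of the 13 passed in the 5 other comparisons.

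Of 25 tested Wnt genes, 1 passed in each of 2 comparisons, both of them receptors of the Frizzled family, beside 1.28% of all genes called for SVE in wild type and 1.18% for genotype averaged. The list's median was -0.02 for SVE in wild type and -0.07 for genotype averaged, beside 0.03 and -0.12 over all genes. Fzd5 averaged 771 ± 96.7 under SVE and 391 ± 65.9 under nSVE in wild type (SD, n = 4 each), a log2 difference of 0.98 (limma adjusted p = 0.0371). The call was lost when any 1 of the 8 wild-type libraries was left out (limma adjusted p 0.0678 to 0.134), with no filter on low values and with either covariate. Fzd8 averaged 673 ± 216 in Vipr2-/- SVE and 1051 ± 168 in wild-type SVE, and 742 ± 81.3 in Vipr2-/- nSVE and 1101 ± 75.2 in wild-type nSVE. Its averaged log2 difference was -0.62 (limma adjusted p = 0.0435). That call was lost in 10 of 14 fits that left out 1 library (limma adjusted p up to 0.108), remaining without Vipr2-/- SVE library 2, Vipr2-/- nSVE library 1 or 3 or wild-type SVE library 4. Fitted with each library's share of genes at 0, the difference was -0.28 (adjusted p = 0.795), and the call was also lost with the rRNA covariate, with library weights, with no filter and by edgeR. Of 15 tested FGF and BMP genes, Fgf10 alone passed, lower in Vipr2-/- under nSVE and averaged, beside 0.611% and 1.18% of all genes called. The list's median genotype difference under nSVE was -0.25, beside -0.10 over all genes. Fgf10 was at 0 in all 3 Vipr2-/- nSVE libraries and at 53.8 ± 9.90 in wild-type nSVE (SD, n = 4), at least 42.2-fold lower against a floor of 3 reads over the group (limma adjusted p = 0.00700). Under SVE it stood at 3.16 to 33.1 in Vipr2-/- and 56.1 to 80.9 in wild type. With these values Fgf10 could not have reached the filter for testing without its wild-type libraries, where it is high. Its call is therefore read as a description. Vipr2-/- nSVE was also the group with the highest mean share of tested genes at 0, and with that share as covariate the Fgf10 call was lost (adjusted p = 0.104).

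**Figure D4:**
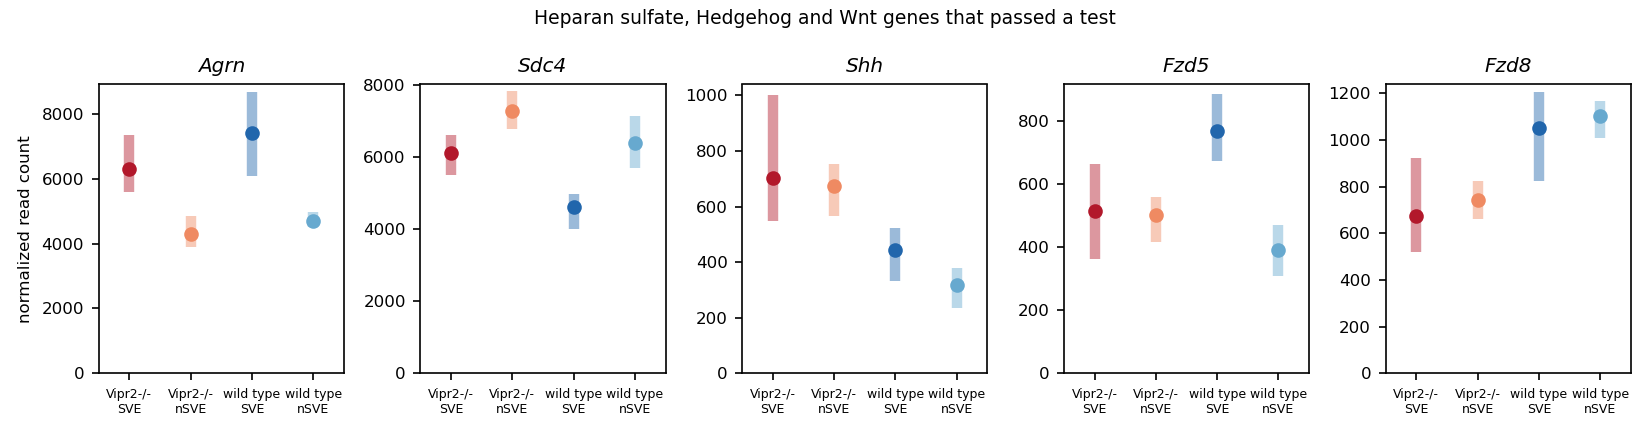
Normalized read count (vertical axis, linear, a separate scale per panel) of 5 genes of the heparan sulfate, Hedgehog and Wnt lists that passed in a comparison; points are group means over 3 Vipr2-/- or 4 wild-type libraries and bars span the lowest to the highest library. Shh averages 704 and 674 in the Vipr2-/- groups, against 443 and 316 in wild type, while Fzd8 averages 673 and 742, against 1051 and 1101.

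The genes around the Gpc3 and Gpc4 pair on the X chromosome showed no call in any of the 6 comparisons. Between 0.022% and 1.28% of all genes were called in these comparisons. Having no call therefore does not set so few genes apart and says nothing about the region. The nearest tested coding gene on the Gpc4 side was Hs6st2, a heparan sulfate 6-O-sulfotransferase 371 kb away, with an averaged genotype difference of 0.17 (limma adjusted p = 0.288). On the Gpc3 side, Ccdc160 and Phf6 had averaged differences of -1.16 and -0.21 with standard errors of 0.81 and 0.63. Hprt, a purine salvage enzyme gene 374 kb from Gpc3, averaged 2494 in Vipr2-/- SVE and 2039 in wild-type SVE, and 2646 in Vipr2-/- nSVE and 2210 in wild-type nSVE, an averaged log2 difference of 0.26 (limma adjusted p = 0.245). Farther on the Gpc4 side, Rap2c stood at 0.14 and Stk26, which averaged at most 12.6 normalized counts in any group, at -1.35.

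By Pearson correlation of log2(value + 1) over the 14 libraries, the genes most like Gpc3 among 12351 candidates were Aldoc (r = 0.895), Plxdc1 (0.893), Magi2 (0.888), Chodl (0.884) and Grik4 (0.881). The libraries share their groups, depths and scaling, so these values are descriptions. Aldoc, a glycolytic aldolase abundant in astrocytes, averaged 46319 in Vipr2-/- SVE, 52606 in Vipr2-/- nSVE, 42302 in wild-type SVE and 30606 in wild-type nSVE. Chodl, a membrane lectin, averaged 850.2 in Vipr2-/- SVE, 1176 in Vipr2-/- nSVE, 750.4 in wild-type SVE and 472 in wild-type nSVE. As with Gpc3, the lowest mean of each of the 5 genes was in wild-type nSVE, which picking them by likeness to Gpc3 favours. Once group means were removed, r was 0.72 for Magi2, a synaptic scaffold, 0.58 for Plxdc1, 0.57 for Chodl and 0.51 for Aldoc, and -0.14 for the kainate receptor subunit gene Grik4, whose likeness thus lay between the groups. Of the other glypicans, r over all libraries was 0.52 for Gpc6, 0.48 for Gpc5, 0.36 for Gpc2, 0.28 for Gpc1 and -0.37 for Gpc4. With group means removed it was 0.54 for Gpc1, 0.46 for Gpc2, 0.38 for Gpc6, 0.24 for Gpc4 and 0.073 for Gpc5, so their order changed and Gpc4 changed sign.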

How the data were processed

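Samples were matched to the columns of the deposited table through library codes given in both, and titles gave the groups. Per the submitters' processing notes and the series text, Trimmomatic, FastQC, HISAT2, StringTie and DESeq2 were used for trimming, quality checks, alignment, counting and normalization, with versions not given in the sources used here. The deposited values are a normalized signal, each gene's count divided by its library's size factor. Division by the value of 1 read gave whole reads, to within 0.001, for 100% of values. The series text names GRCm38 and the notes GRCm39; 54349 of 55401 gene identifiers are in GENCODE M21 for GRCm38, each with identical coordinates.

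A gene was tested if 3 or more libraries reached 10. Tests used limma 3.58.1 (R 4.3.3) on log2(value + 1), with a mean-variance trend and 1 mean per group over all 14 libraries. In each of 6 comparisons p-values were adjusted over 18175 genes by Benjamini-Hochberg, and calls were made under 0.05. Levels between genes are per kb of all exonic bases. The fits were checked on simulated data. Other settings were a pseudocount of 0.5 or 10, a filter of 50 or none, TMM scaling, library weights, the replicate number as a block, only the groups compared, 2 covariates, edgeR 4.0.16 and DESeq2 1.42.0 on recovered reads, and leaving out each library.

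The members, gene lists and tests were chosen with earlier results of these data known. Named genes were the 6 glypicans; up to 4 called members of each list, otherwise the 2 with the smallest averaged genotype p; the 3 nearest tested coding genes on each side of Gpc3 and Gpc4; the 5 genes with a mean of at least 50 most correlated with Gpc3; and Vipr2. Ankmy1 and Gm43720 are named for shared exons and Rgs16, Nms, Vip, Avp, Mobp, Oxt and Pmch as markers.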

Additional observations from a re-analysis of the deposited data

Results flagged for a closer look

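Gpc2 in wild-type nSVE stood out by a single library: library 3 held 7.05 normalized counts, from 6 reads, while the 3 others were at 0. The rule set the gap to the nearest library against the range of the group. With 3 libraries at 0, any reads in library 3 would have been flagged, so the flag says nothing about how rare this is. Only wild-type groups, 12 in all, were checked, and the Vipr2-/- groups of 3 libraries were not.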

How the results depend on the processing

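Counts of glypicans called stayed the same in 117 of 126 recalculations. For genotype under SVE the count of 0 became 1 by DESeq2 and lay between 0 and 1 when single libraries were left out. For SVE in wild type the gene counted was Gpc3, whose test is not independent of its choice. There the count of 1 became 2 with library weights, with only the groups compared and by DESeq2, became 0 with the rRNA covariate, and lay between 0 and 1 without single libraries. For the interaction it became 1 by DESeq2; that gene is Gpc3, whose value is built from the contrasts that chose it. With the replicate number as a block the counts were 0, 0 and 0 for the 3 genotype comparisons, 1 and 0 for SVE in wild type and in Vipr2-/-, and 0 for the interaction; the numbers were not shown to pair libraries (residual correlations -0.0536 to 0.117 over 19 pairs, 1 over 0.1, and 9 of 14 libraries closest to their own number). Of the list genes, Sdc4, Shh, Fzd5 and Fzd8 did not pass with the block. Per kb of the longest transcript, Gpc1 averaged 814.8, Gpc5 237.5 and Gpc6 63.0, in the same order. Gpc2 turned direction most: for genotype under SVE 1.13 with each library's share of genes at 0 as covariate, 0.19 by edgeR and 0.18 by DESeq2; averaged, -0.48 with the block; for SVE in Vipr2-/-, 0.20 at pseudocount 10, 1.08 by edgeR and 1.04 by DESeq2. Without single libraries the log2 difference of Gpc2 ranged from -0.040 to 1.94 (genotype, nSVE), -0.77 to 0.52 (averaged) and -1.79 to 0.99 (SVE in Vipr2-/-), Gpc4 from -0.96 to 0.30 (genotype, SVE) and -0.10 to 1.16 (SVE in Vipr2-/-), and for SVE in wild type Gpc5 from -0.14 to 0.087 and Gpc6 from -0.28 to 0.046. The cause was not tested. Over the whole table, calls ranged from 16 to 525 for genotype under nSVE (111 as reported), 6 to 1100 under SVE (32), 12 to 1007 averaged (215), 3 to 1693 for SVE in wild type (233, 3 with the rRNA covariate), 0 to 394 in Vipr2-/- (21) and 0 to 175 for the interaction (4). A separate fit of only the groups compared was not run for the averaged and interaction comparisons, which use all groups. Gpc2 rested on 0 to 39 reads per library and the 3 lowest Gpc4 values on 37, 44 and 53 reads. The part of read depth in these values was not tested.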
